A study of Mus musculus with 6 samples.

Results

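The genes described here were 10 genes of the cytosolic heat shock system, chosen by symbol as the inducible HSP70s Hspa1a and Hspa1b, the constitutive HSP70 Hspa8, the HSP90s Hsp90aa1 and Hsp90ab1, the J-domain proteins Dnaja1 and Dnajb1, the HSP110 Hsph1, the small heat shock protein Hspb1 and the cofactor Bag3. All 10 were among the 17975 genes of the expression table, and all 10 passed the filter on low counts that kept 13805 genes. RNA was sequenced from whole liver of 3 wild-type (WT) and 3 hepatocyte Nek7 knock-out (Hom) mice, and each liver was 1 library. Hom mice carried floxed Nek7 on both chromosomes together with Alb-Cre, a Cre recombinase driven by the albumin promoter, which is active in hepatocytes, so the deletion was directed at hepatocytes and not at the other cells of the liver. The floxed and Alb-Cre mice that were crossed were on a C57BL/6 background. Whether a WT liver carried floxed alleles or Alb-Cre alone was not given in the sources used here. The ages stated there for mice of the study were not tied to these livers. The question was how these chaperone genes were expressed in livers with this deletion.

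In the cytosol, HSP70 binds stretches of unfolded protein in a cycle of ATP hydrolysis. J-domain proteins bring clients and start the hydrolysis, while HSP110 and BAG proteins release the nucleotide so that the client can leave. HSP90 takes over clients that are partly folded, such as kinases and steroid receptors, and small heat shock proteins hold unfolded protein without ATP. In unstressed cells Hspa8 and Hsp90ab1 are made all the time, whereas Hspa1a, Hspa1b, Dnajb1, Hsph1 and Hspb1 are induced when heat shock factor 1 binds repeats of the unit GAA, in alternating orientation, in their promoters. Their mRNA in liver is known to follow body temperature over the day as well as handling and feeding.

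Promoter sequences are shown first because heat shock elements are known to regulate the inducible genes among the 10. No expression value was used to cut out the stretches printed. RefSeq promoter windows on GRCm38.p6, each with 250 bases before and 50 bases after a transcription start, were matched for 7 of the 10 genes (11 windows). Hspa8, Hsp90aa1 and Hsp90ab1 had no entry. Both alternating arrangements of 2 units were searched, GAANNTTC and TTCNNGAA, each of which reads the same on both strands and is called a pair here. Runs of 3 units, in which either pair is extended by the next alternating unit after NN, contain overlapping pairs and were searched on both strands. Of the 7 genes, 6 had a pair in at least 1 window, against 17.0% of 27025 genes in the whole promoter table, and only Hsph1 had a run of 3 units, against 0.66% of genes. The 250 upstream bases of the HSP70 copies and of Hspb1 follow, 5′ to 3′ on the strand of the gene, with the pairs in capitals.
Hspa1a, chr17:34972157-34972406, minus strand: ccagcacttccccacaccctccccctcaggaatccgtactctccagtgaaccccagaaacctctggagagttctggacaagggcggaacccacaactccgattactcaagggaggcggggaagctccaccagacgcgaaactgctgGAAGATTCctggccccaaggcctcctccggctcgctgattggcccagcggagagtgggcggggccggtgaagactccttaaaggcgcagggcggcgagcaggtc
Hspa1b, chr17:34959239-34959488, minus strand: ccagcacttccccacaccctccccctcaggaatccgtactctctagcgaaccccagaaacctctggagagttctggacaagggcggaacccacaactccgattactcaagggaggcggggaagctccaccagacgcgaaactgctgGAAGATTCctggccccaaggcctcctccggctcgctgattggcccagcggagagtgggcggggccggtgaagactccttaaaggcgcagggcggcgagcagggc
Hspb1, chr5:135887669-135887918, plus strand: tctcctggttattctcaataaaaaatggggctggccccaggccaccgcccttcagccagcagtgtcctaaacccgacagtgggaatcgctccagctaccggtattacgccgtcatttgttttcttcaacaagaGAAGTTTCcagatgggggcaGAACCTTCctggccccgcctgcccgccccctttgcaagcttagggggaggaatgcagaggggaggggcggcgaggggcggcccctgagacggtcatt
The pair of Hspa1b, 104 bases before the start, stood where that of Hspa1a did, and Hspb1 had 2 pairs of the same form, 117 and 97 bases before its start. Over the whole windows the Hspa1a and Hspa1b promoters were identical at 296 of 300 bases (98.7%).

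Hsph1 and Bag3 held units just after the annotated start, in the short stretches below, and in Dnaja1 a pair lay 124 bases before it. Hsph1 also had a separate pair before its start, 33 bases away in the first of its windows and 54 in the other. In Hsph1 the run of 3 units began 36 bases after the start in the first of its windows, and in Bag3 the pair began 42 bases after the start. Neither of the Dnajb1 windows held a pair, and this says only that these letters were not in those windows.
Hsph1, chr5:149636288-149636316, minus strand, run of 3 units in capitals: agtaaaatgctgcagaTTCTGGAAAGTTC
Bag3, chr7:128523603-128523632, plus strand, pair in capitals: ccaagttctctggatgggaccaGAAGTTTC

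Total estimated counts were close in the 6 libraries (19349418 to 19730236), and values are given below as CPM (counts scaled to library size) after TMM scaling, whose factors were 0.806 to 0.924 in WT and 1.09 to 1.23 in Hom livers. Nek7 itself was 65.2 ± 3.36 CPM in WT and 16.4 ± 1.83 CPM in Hom livers (SD, n = 3), with no overlap (log2 fold change -1.99, SE 0.10, adjusted p = 1.59e-04, edgeR quasi-likelihood test). Hepatocyte markers summed to 183092 to 217968 CPM in WT and 71811 to 95251 CPM in Hom livers, with 15 of 20 lower and none higher in Hom. Cholangiocyte markers summed to 72.8 to 103 CPM in WT and 630 to 889 CPM in Hom livers (9 of 10 higher), and stellate cell and fibroblast markers to 369 to 436 and 752 to 833 CPM (7 of 12 higher and 1 lower). Endothelial markers summed to 223 to 303 CPM in WT and 177 to 186 CPM in Hom livers (5 of 10 lower and 1 higher). In whole tissue, fewer cells of a type and less RNA per cell cannot be told apart, and the part of this shift in the chaperone values below was not tested. Libraries that stood apart were Hom replicate 1 and WT replicate 1. Hom replicate 1 had 0 counts of Ddx3y and Kdm5d and 4 of Eif2s3y, genes of the Y chromosome that the 5 other livers expressed. It did have 149 counts of Uty, also on the Y chromosome, and the sex of each liver was not given in the sources used here. The erythroid sum was highest in Hom replicate 1 (2162 CPM). In WT replicate 1 the macrophage and neutrophil sums were the highest of the WT livers (826 and 106 CPM).

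Of the 10 chaperone genes, 2 were called lower in Hom livers and none was called higher (edgeR, adjusted p under 0.05), and none was higher at an unadjusted p under 0.05 or by DESeq2. These were Dnajb1 and Bag3, at 55.8% and 58.9% of their WT means. The share called lower, 20%, was that of the background, since 20.1% of all 13805 tested genes were called lower and 21.5% higher. In 3 genes, Dnajb1, Hsph1 and Bag3, the highest Hom value was below the lowest WT value, against 27.0% of all tested genes. Fold changes were negative in 8 of the 10 genes, with a median of -0.42 on the log2 scale beside -0.0018 over all tested genes. That median of the 10 was -0.20 without WT replicate 3, where 7 were negative, and -0.56 without WT replicate 2. The WT livers spread widely, from 2527 to 4494 CPM over the 10 genes summed, whereas the 3 Hom livers lay between 2452 and 2501 CPM. That separation belonged to the TMM scale. In TPM, which corrects for length and has no TMM factors, the sums were 2104, 1487 and 2700 in WT livers. In Hom livers they were 2241, 2599 and 2458 TPM, inside the WT range.

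**Figure D1:**
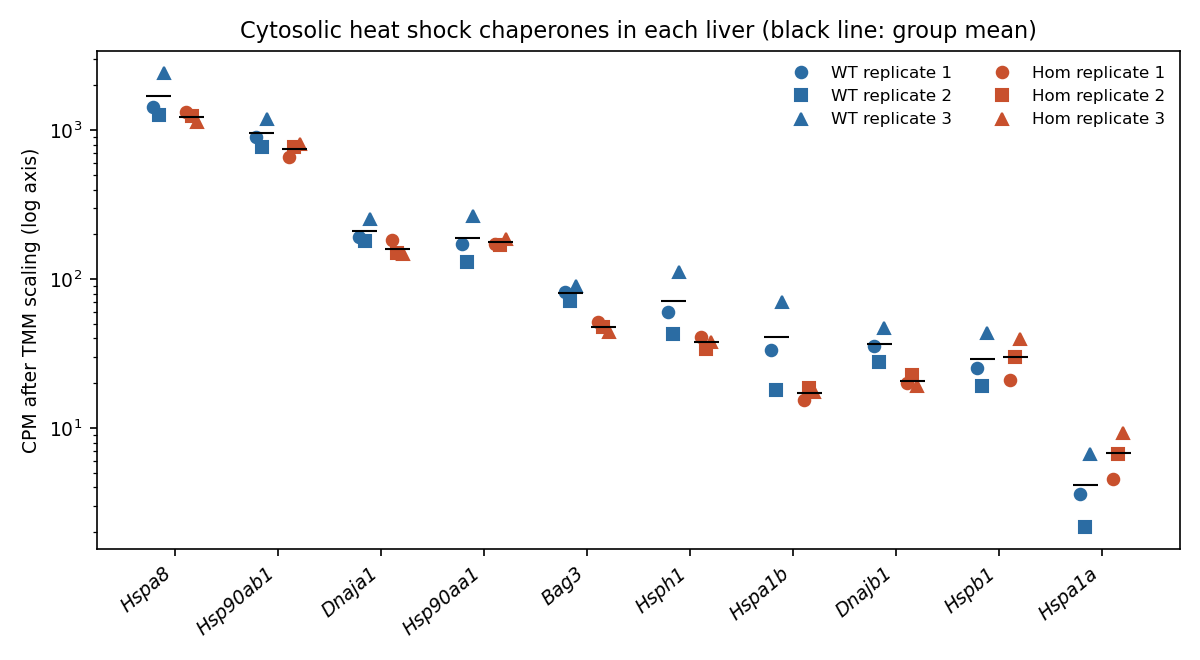
CPM after TMM scaling (log axis) of the 10 chaperone genes in each of the 3 WT and 3 Hom livers, with points for livers and bars for group means. In Dnajb1, Hsph1 and Bag3 the 3 Hom livers lie under the 3 WT livers, and in the other 7 genes the groups overlap.

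Bag3 had the smallest error of the 10 genes. BAG3 joins HSP70 to small heat shock proteins and steers clients to autophagy, and its gene lies at chr7:128523616-128546981 (GRCm38, plus strand). It was measured at 81.8, 71.9 and 90.4 CPM in the WT livers and at 51.8, 48.0 and 43.9 CPM in the Hom livers. Every Hom liver was under the lowest WT liver, and the log2 fold change was -0.76 (SE 0.11, adjusted p = 0.00243, edgeR quasi-likelihood test). Without Hom replicate 1 it was -0.83, with an adjusted p of 0.00492.

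Dnajb1 was the other gene that fell. It encodes the stress-inducible J-domain partner of HSP70, and it lies at chr8:83608193-83612653 (plus strand). Its values were 35.7, 27.8 and 47.2 CPM in WT and 20.1, 22.6 and 19.1 CPM in Hom livers. The groups did not overlap, with a log2 fold change of -0.84 (SE 0.19, adjusted p = 0.0123, edgeR quasi-likelihood test). The call was lost without Hom replicate 3 (adjusted p = 0.0511). Dnaja1, a J-domain protein made constitutively, was 192, 180 and 255 CPM in WT and 183, 150 and 148 CPM in Hom livers. Here Hom replicate 1 lay inside the WT range, and the difference did not pass the test (log2 fold change -0.39, SE 0.16, adjusted p = 0.0908). Without WT replicate 3 the fold change of Dnaja1 was -0.22.

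The stress-inducible HSP70 genes are an intronless, near-identical pair on chromosome 17, with Hspa1a at chr17:34969190-34972156 and Hspa1b at chr17:34956436-34959238 (both minus strand). Of the 100-base windows of the Hspa1a transcript, 47.1% occurred unchanged in Hspa1b, so reads from these stretches had to be divided between the copies by the counting program and each copy's value is uncertain. Hspa1b was 33.6, 18.1 and 70.6 CPM in WT and 15.4, 18.7 and 17.5 CPM in Hom livers. The Hom livers lay close together at the level of the lowest WT liver, and the log2 fold change was -1.24 (SE 0.44, adjusted p = 0.0584). It was -1.60 and passed the test without WT replicate 2 (adjusted p = 0.0161), and was -0.60 without WT replicate 3. Hspa1a was far lower, at 3.63, 2.18 and 6.70 CPM in WT and 4.57, 6.68 and 9.27 CPM in Hom livers. Its groups overlapped as well, with a fold change of the opposite sign (0.71, SE 0.43, adjusted p = 0.219). That value was 1.22 without WT replicate 3 (edgeR adjusted p = 0.0523) and 0.41 without WT replicate 2.

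Summed over both copies, which does not depend on how shared reads were divided, the inducible HSP70 mRNA was 44.9 ± 29.3 CPM in WT and 24.0 ± 3.56 CPM in Hom livers (SD, n = 3). The log2 fold change was -0.90 (SE 0.44, adjusted p = 0.137). WT replicates 2 and 3 decided this value, which was -1.25 without WT replicate 2 (adjusted p = 0.0329) and -0.27 without WT replicate 3. Hspa1a took 9.75%, 10.8% and 8.66% of the summed counts in the WT livers and 22.8%, 26.3% and 34.6% in the Hom livers. These shares did not overlap between the groups, but they rest on the division of shared reads.

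Hspa8, the constitutive HSP70, was the most abundant of the 10 mRNAs. On a scale corrected for length, it reached 1185 ± 385 TPM in WT livers, against 21.1 ± 13.0 TPM for Hspa1b and 2.16 ± 1.13 TPM for Hspa1a (SD, n = 3). It took 51.1% to 58.9% of the summed TPM of the 10 genes in every liver. In CPM it was 1439, 1261 and 2411 in WT and 1320, 1249 and 1140 in Hom livers. WT replicate 3 stood above the 5 other livers, whose values were close to each other, and the difference did not pass the test (log2 fold change -0.46, SE 0.26, adjusted p = 0.186). Without WT replicate 3 the fold change of Hspa8 was -0.13. Hsph1, the HSP110 that exchanges the nucleotide of HSP70, was 59.9, 42.7 and 112 CPM in WT and 41.1, 34.1 and 37.9 CPM in Hom livers. No Hom value reached the lowest WT value, yet the WT livers spread 2.63-fold and the adjusted p was 0.0579 (log2 fold change -0.93, SE 0.33). Without WT replicate 2 the adjusted p was 0.0234, and without WT replicate 3 the fold change was -0.45.

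Neither HSP90 gene passed the test. Hsp90ab1, the constitutive form and the next most abundant mRNA (558 ± 121 TPM in WT livers), was 897, 774 and 1191 CPM in WT and 659, 771 and 810 CPM in Hom livers. Hom replicates 1 and 2 lay under the WT range and Hom replicate 3 inside it (log2 fold change -0.35, SE 0.19, adjusted p = 0.173). Without WT replicate 3 that fold change was -0.17. Hsp90aa1, the inducible form, was 172, 130 and 266 CPM in WT and 173, 170 and 187 CPM in Hom livers, all within the WT range (log2 fold change -0.10, SE 0.24, adjusted p = 0.766). Its sign turned to 0.22 without WT replicate 3. Hspb1, the mouse gene of the small heat shock protein called HSP27 in humans, was 25.2, 19.0 and 43.5 CPM in WT and 21.2, 30.0 and 39.4 CPM in Hom livers. The Hom livers lay within the WT range (log2 fold change 0.05, SE 0.34, adjusted p = 0.921), and the sign turned without WT replicate 1, WT replicate 2 or Hom replicate 3.

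In WT livers the order of TPM after Hspa8 and Hsp90ab1 was Hsp90aa1 (97.0 ± 33.4), Dnaja1 (90.0 ± 15.9), Hspb1 (49.1 ± 19.6), Bag3 (46.1 ± 7.46), Hsph1 (30.4 ± 14.3), Hspa1b (21.1 ± 13.0), Dnajb1 (18.0 ± 4.75) and Hspa1a (2.16 ± 1.13). Hsp90aa1 and Dnaja1 did not differ beyond their spread, nor did Hspb1 and Bag3, nor Hsph1, Hspa1b and Dnajb1, and Bag3 exceeded Hsph1 by little more than the SD of Hsph1. In Hom livers the order began likewise with Hspa8 (1331 ± 86.7 TPM), Hsp90ab1 (676 ± 112), Hsp90aa1 (140 ± 12.6) and Dnaja1 (106 ± 5.60).

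**Figure D2:**
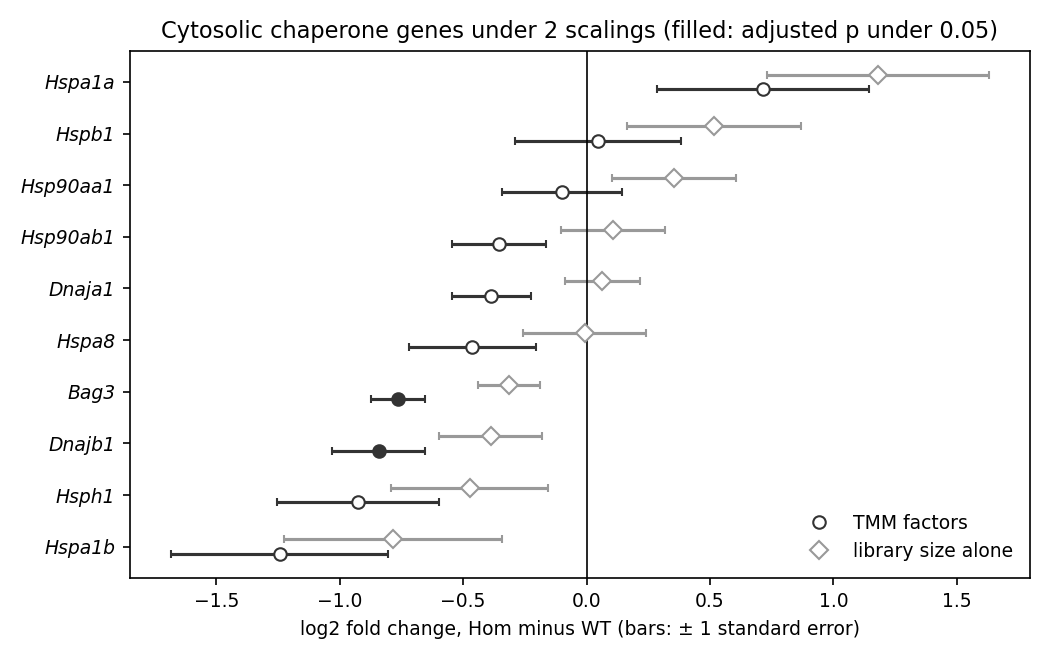
Log2 fold change (Hom over WT, edgeR) of the 10 chaperone genes with bars of 1 SE, with TMM factors (circles) and with library size alone (diamonds), filled where the adjusted p was under 0.05. With TMM, Dnajb1 and Bag3 passed an adjusted p of 0.05, and Hspa1b and Hsph1 had larger changes with larger errors.

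The differences between groups depended on the tool and on the scaling of the libraries. DESeq2 called 4 of the 10 genes lower, adding Hspa1b (adjusted p = 0.00894) and Hsph1 (adjusted p = 0.0124), where 18.0% of the genes it tested were lower. When libraries were scaled by total counts alone, the median of all tested genes shifted to 0.45 on the log2 scale. None of the 10 genes was then called in either direction by edgeR, against 4.65% of all genes called lower and 47.6% called higher. At an unadjusted p under 0.05 Bag3 was lower and Hspa1a higher. The log2 fold changes under that scaling were -0.39 for Dnajb1 and -0.32 for Bag3, and the median of the 10 genes was 0.029, which lay as far under the median of all genes as with TMM.

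Ratios between paralogs within a liver do not depend on scaling between libraries. These ratios, 3 in all, were computed from TPM and tested by an exact two-sided permutation test, for which 3 livers against 3 cannot give a p under 0.1. Dnajb1 was 21.0%, 17.4% and 20.9% of Dnaja1 in WT and 12.4%, 17.0% and 14.5% in Hom livers. These did not overlap, and the ratio in Hom was 0.738 of that in WT (exact permutation p = 0.1, adjusted over the 3 ratios 0.3). Hsp90aa1 was 16.8%, 14.7% and 19.6% of Hsp90ab1 in WT and 23.1%, 19.4% and 20.2% in Hom livers, which overlapped (exact permutation p = 0.2, adjusted 0.3). Hspa1a and Hspa1b together were 1.93%, 1.20% and 2.39% of Hspa8 in WT and 1.13%, 1.51% and 1.75% in Hom livers, and these overlapped too (exact permutation p = 0.4, adjusted 0.4).

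The order of the WT livers was a feature the 10 genes had in common, whereas the width of their spread differed from gene to gene. In each of the 10, WT replicate 3 was the highest and WT replicate 2 the lowest of the WT livers, an order found in 12.4% of the 13607 tested genes without a 0. The SD of log2 CPM was larger among WT than among Hom livers in 10 of 10 genes, as it was in 59.9% of all genes. Its median over the 10 genes was 0.51 in WT and 0.14 in Hom livers, beside 0.18 and 0.15 over all genes. The largest over the smallest WT value was 3.90 for Hspa1b, 3.07 for Hspa1a, 2.63 for Hsph1, 2.28 for Hspb1, 2.05 for Hsp90aa1 and 1.91 for Hspa8. It was 1.70 for Dnajb1, 1.54 for Hsp90ab1, 1.41 for Dnaja1 and 1.26 for Bag3, whose WT SD (0.17) was under the median of all genes. These genes share libraries, so the 10 are not independent observations, and an SD from 3 livers is itself imprecise. In the ER chaperones, 11 of 14 genes had the same order of WT livers, and in the HSP90 co-chaperones 8 of 18. These list counts depended on the scaling, since on unscaled counts they were 14 of 14 and 4 of 18, whereas the 10 chaperone genes had that order on both scales. The larger SD in WT livers was also found in 10 of 11 other heat-inducible genes and in 5 of 5 tested genes of the heat shock factors and their regulators. It was found in 12 of 14 CCT chaperonin and prefoldin genes, 12 of 18 HSP90 co-chaperones and 8 of 14 ER chaperones. In the mitochondrial chaperones and proteases it was 6 of 12, in the HSP70 and HSP110 relatives 4 of 8, and in the clock genes 8 of 18.

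**Figure D3:**
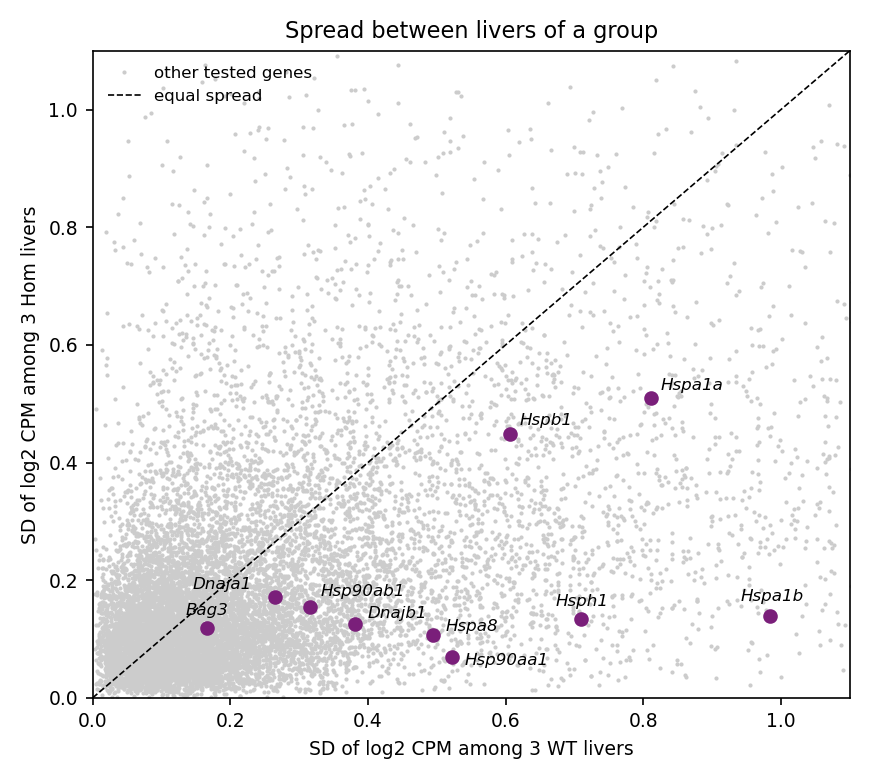
SD of log2 CPM among the 3 WT livers (horizontal) against that among the 3 Hom livers (vertical), with the 10 chaperone genes named and all other tested genes in grey (genes with a larger SD lie outside the axes). The named genes lie under the line of equal SD, with medians of 0.51 in WT and 0.14 in Hom livers.

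Genes that followed the inducible chaperones from liver to liver were ranked by Pearson correlation with the mean z score of Hspa1a, Hspa1b, Dnajb1, Hsph1 and Hsp90aa1 over the 6 livers. The 6 highest were Lamb3 (0.98), Abtb2 (0.98), Elp6 (0.97), Nmral1 (0.96), Fam171a1 (0.96) and Dock9 (0.95). With 6 points that share their libraries, these values are a description.

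Other genes of the system were counted in lists, and these counts are to be read beside the 20.1% of all tested genes called lower and the 21.5% called higher, and under library size alone beside 4.65% lower and 47.6% higher. The heat shock factors themselves did not pass the test. Hsf1, the factor that switches on the inducible chaperones, had a log2 fold change of -0.14 (SE 0.09, adjusted p = 0.248), Hsf2 of -0.39 (adjusted p = 0.0586) and Hsf4 of -0.20 (adjusted p = 0.362). Hsbp1, which binds heat shock factor 1 and limits it, had -0.12 (adjusted p = 0.200). Its relative Hsbp1l1 was lower at 1.23, 1.80 and 2.21 CPM in WT and 0.607, 0.536 and 0.560 CPM in Hom livers (log2 fold change -1.61, adjusted p = 0.00799), which was 1 of 5 tested genes of the list (median -0.20). Without WT replicate 2, Hsf2 was called as well. Hsf5 was too low to test. Under library size alone Hsbp1 was higher (0.34, adjusted p = 0.0202) and Hsbp1l1 remained lower (-1.15).

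Among the partners of HSP70, genes of nucleotide exchange and client handover were lower in 5 of 8 cases (62.5%, beside 20.1% of all genes) and higher in none (median log2 fold change -0.29). Bag4, a BAG-domain protein, fell from 37.0, 45.6 and 36.4 CPM in WT to 18.1, 21.7 and 21.0 CPM in Hom livers (-0.97, adjusted p = 0.00154). Stub1, the ubiquitin ligase CHIP, had -0.44 (adjusted p = 0.0185). Only Bag4 of this list stayed lower under library size alone, and with 1 liver left out the count was 2 (without Hom replicate 2) to 5, with 3 without WT replicate 2, WT replicate 3 or Hom replicate 3. Other cytosolic J-domain genes gave 2 lower of 13 (Dnajb4 -0.27 and Dnajb6 -0.21, median -0.03), and with 1 liver left out 1 (without WT replicate 3) or none (each of the other 5, with 1 to 4 at an unadjusted p under 0.05). Under library size alone 7 of these 13 were higher and none lower, beside 47.6% of all genes higher. HSP70 and HSP110 relatives gave 1 lower and 1 higher of 8, namely Hspa13 (-0.73, adjusted p = 0.0179) and the testis-rich Hspa2 (1.35, adjusted p = 0.00928), with a median of 0.45. Hspa2 remained higher under library size alone, where 5 of the 8 were higher and Hspa13 was no longer called, and Hspa13 also lost its call without Hom replicate 2 or Hom replicate 3.

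HSP90 co-chaperones were lower in 8 of 18 cases (44.4%, beside 20.1% of all genes) and higher in 1 (median -0.28), but lower in 3 without Hom replicate 2 and in 3 without Hom replicate 3. Stip1, or HOP, which joins HSP70 to HSP90, was 98.7, 90.1 and 145 CPM in WT and 77.1, 67.7 and 77.9 CPM in Hom livers (-0.58, adjusted p = 0.0388). Like Hsph1 it did not overlap between groups and was highest in WT replicate 3. Cdc37l1, a relative of the kinase co-chaperone CDC37, had -0.56 (adjusted p = 0.00368), and Unc45a, which helps myosin fold, was higher (0.46, adjusted p = 0.00824). Under library size alone none of the 18 was lower and 3 were higher. The CCT chaperonin and prefoldin, which fold actin and tubulin, gave 4 lower and 1 higher of 14 (median -0.24), with Pfdn6 at -0.51, Pfdn2 at -0.40 and Vbp1 at 0.43. That count fell to 2 lower without WT replicate 2 or Hom replicate 1, and to 1 without WT replicate 3, Hom replicate 2 or Hom replicate 3. None of the 14 was higher without WT replicate 2, WT replicate 3, Hom replicate 2 or Hom replicate 3. Under library size alone 4 were higher and none lower.

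**Figure D4:**
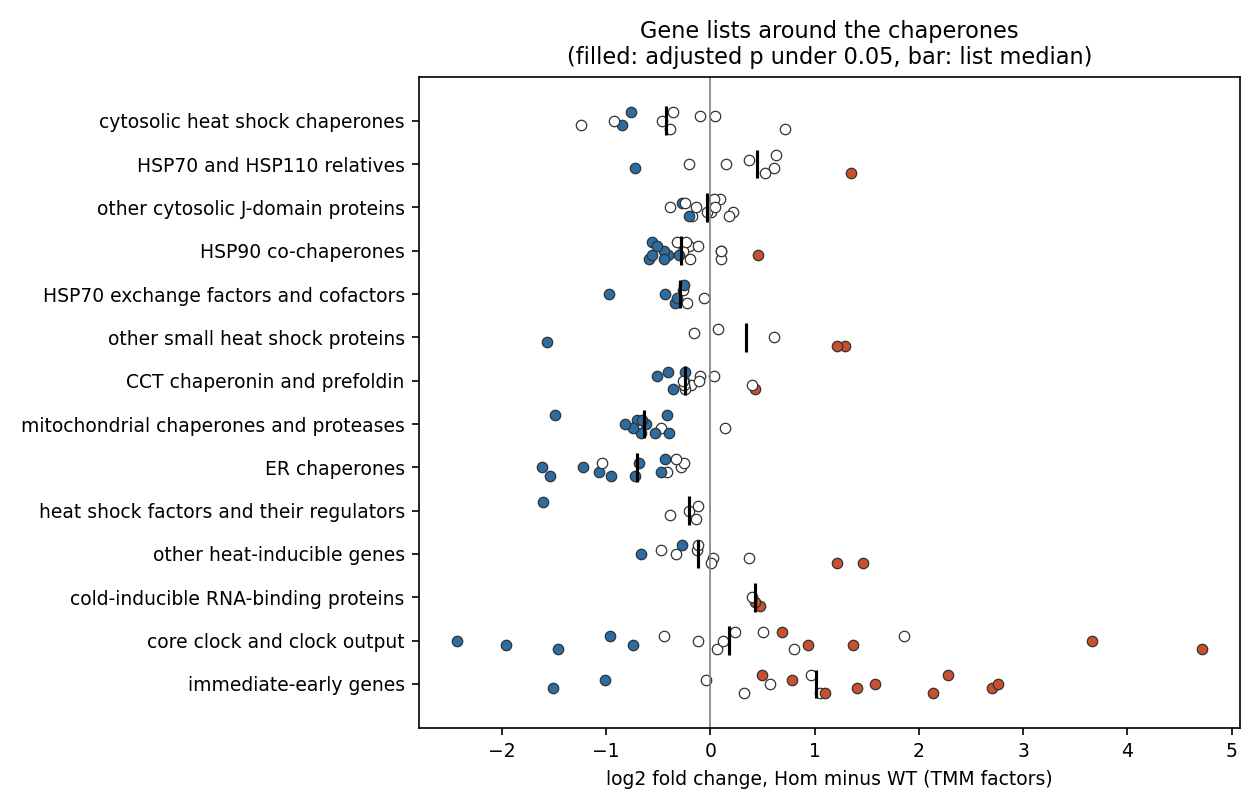
Log2 fold change (Hom over WT, edgeR, TMM scaling) of the 10 chaperone genes and of the other lists, 1 point per tested gene (filled where the adjusted p was under 0.05), with a bar at the median of each list. Medians run from -0.71 in the ER chaperones to 1.01 in the immediate-early genes, and the 10 cytosolic chaperone genes have -0.42.

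Other small heat shock proteins moved in both directions, with 1 lower and 2 higher of 6 tested (median 0.34). With 1 liver left out the median ran from -0.063 (without Hom replicate 1) to 0.57 (without WT replicate 3). Hspb6 was 29.2, 24.6 and 29.2 CPM in WT and 9.19, 9.11 and 9.79 CPM in Hom livers (-1.56, adjusted p = 2.65e-04), and Cryab, or alpha-B crystallin, was 5.75, 6.80 and 5.16 CPM in WT and 10.8, 14.0 and 16.3 CPM in Hom livers (1.22, adjusted p = 0.00342). Neither pair of ranges overlapped, and both calls held under library size alone. Hspb2, a neighbour of Cryab known from muscle, was under 1 CPM in every liver (1.29, adjusted p = 0.0499), and its call was kept only without WT replicate 1 among the 6 fits that left out a liver. Of 11 other heat-inducible genes, 2 were lower and 2 higher (median -0.12), and Dnajb4 kept its call only without WT replicate 3 among those fits. Besides Cryab and Dnajb4 these were Serpinh1, the collagen chaperone HSP47 (1.46, adjusted p = 0.00179), and Hspd1, the mitochondrial HSP60 (-0.67, adjusted p = 0.00711). Serpinh1 is made by collagen-producing cells, whose markers were also higher in Hom livers, and their part in it was not tested. Under library size alone 4 of the 11 were higher and none was lower.

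Chaperones of other compartments were also counted. Mitochondrial chaperones and proteases were lower in 10 of 12 cases (83.3%, beside 20.1% of all genes, median -0.64), among them Clpx (-1.49, adjusted p = 0.00549) and Clpb (-0.82, adjusted p = 0.00141), and in 9 or 10 with 1 liver left out. ER chaperones were lower in 9 of 14 cases (64.3%, median -0.71), led by Creld2 (-1.62) and Hyou1 (-1.53), but in only 2 without Hom replicate 2, in 2 without Hom replicate 3 and in 4 without WT replicate 3. Each list kept 3 lower genes and had none higher under library size alone. Whether these lists differed from the cytosolic chaperones was not tested.

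Lists on body temperature, time of day and acute stimulation were also counted, since each can move heat shock mRNA. The cold-inducible RNA-binding proteins Cirbp (0.48, adjusted p = 0.0223) and Rbm3 (0.43, adjusted p = 0.0313) were higher in Hom livers, 2 of 3 genes, with a list median of 0.43. None was called without WT replicate 2, WT replicate 3, Hom replicate 1 or Hom replicate 2, where 2 or 3 had an unadjusted p under 0.05. Clock genes gave 5 lower and 5 higher of 18 (median 0.18), and 3 higher without WT replicate 2, Hom replicate 1 or Hom replicate 2. Dbp was 0.335, 1.60 and 3.38 CPM in WT and 59.6, 49.9 and 29.2 CPM in Hom livers (4.72, adjusted p = 0.00160), Per3 was also higher (3.66), and Npas2 (-2.43) and Nfil3 (-1.96) were lower. Immediate-early genes gave 9 higher and 2 lower of 16 (median 1.01), with Atf3 (2.76) and Egr2 (2.70) highest and Dusp1 (-1.51) and Zfp36 (-1.01) lowest. These named clock and immediate-early genes kept their calls under library size alone, where 10 and 12 genes of the lists were higher. Their part in the chaperone values was not tested, and the time of day at which each liver was taken was not given in the sources used here.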

How the data were processed

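RNA from 3 WT and 3 Hom livers was sequenced on the DNBSEQ platform. The submitters' processing notes name HISAT2 2.0.4, Bowtie2 2.2.5, RSEM 1.2.12 and the genome build mm9, and strandedness was not given in the sources used here. The authors deposited estimated counts, FPKM and TPM for each liver. The authors' FPKM values, per length and library size, served only to derive gene lengths, and the authors' TPM values were used for levels, ratios and 1 alternative. In all 17975 genes the mean of the 3 Hom livers equalled, within 0.01, the deposited mean named Ctrl, the name of the WT livers. The deposited group means were therefore left out.

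The estimated counts, rounded to integers, were fitted with edgeR 4.0.16 under R 4.3.3 (low counts removed by filterByExpr, TMM, quasi-likelihood test, Benjamini-Hochberg adjustment over 13805 genes, called at an adjusted p under 0.05), after the edgeR fit was tested on simulated data. Alternatives used DESeq2 1.42.0 and limma 3.58.1 on log2(TPM + 1). Each list of other genes is given as counts and a median, to be read beside those of all genes. p-values measure the spread between 3 livers a group. GENCODE M21 (GRCm38) gave the positions of genes, RefSeq (GRCm38.p6) those of promoters, and no coordinate was converted.

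The 10 genes and all lists were chosen with earlier results of these data known. Named genes were the 10 genes, Nek7, in each list up to 2 called genes at either end of the fold changes, the heat shock factors, the Y-linked genes, and the 6 genes most like the mean profile of the inducible chaperones. Replicate numbers name different mice: same-numbered livers correlated by -0.109, -0.056 and -0.049 in their deviations from group means.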

Additional observations from a re-analysis of the deposited data

How the results depend on the processing

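Over the 10 genes, 119 of 140 fold changes under alternatives kept their direction and side of the threshold, 5 became called, 5 lost the call and 11 changed sign. The number of the 10 called lower was 2 as reported, 4 with DESeq2, 0 with library size alone, 0 with limma on log2(TPM + 1), 0 with a minimum absolute log2 fold change of 1, and 1 to 4 when 1 liver was left out (4 without WT replicate 2, 1 without Hom replicate 3). The number called higher was 0, and 1 (Hspa1a) with limma. Signs turned for Hspa8 (0.22 with limma), Hsp90aa1 (0.36 with library size, 0.58 with limma, -0.31 to 0.22 with 1 liver left out), Hsp90ab1 (0.11 and 0.29), Dnaja1 (0.064 and 0.24) and Hspb1 (-0.19 to 0.44 with 1 liver left out). The summed Hspa1a and Hspa1b ran from -1.25 to -0.27 with 1 liver left out. Over all genes, 2780 were lower and 2974 higher. These became 642 and 6574 with library size alone, 433 and 8368 with limma, 575 and 1825 with the minimum fold change, and 1767 to 2750 and 1986 to 3057 with 1 liver left out. Higher genes made up 51.7% of calls with TMM, 91.1% with library size alone and 62.8% with upper-quartile factors. The lists of other genes held 48 lower and 22 higher genes, and 14 and 50 with library size alone. Blocking on replicate number gave 2214 lower and 2383 higher genes, and Dnajb1 and Bag3 were still called, so the block changed no call among the 10 genes. No spike-in fixes the scale between livers, so each direction given here is relative to the TMM scaling, and 3 livers a group limit every test.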
